A study of Mus musculus with 12 samples.

Results

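TNF receptor superfamily costimulators are surface receptors that adjust how an activated T cell survives, divides, and differentiates. The 9 genes described here comprise 7 receptors (Tnfrsf4, Tnfrsf9, Tnfrsf18, Tnfrsf1b, Tnfrsf25, Cd27, and Fas) and 2 ligands that T cells themselves make (Tnfsf8 and Tnfsf11). They were taken by gene symbol from a Th17 versus Th0 table and an iTreg versus Th0 table of RNA-seq values. They were chosen with earlier results of these data known, and all are described whatever their level or change. All 9 were listed and all 9 passed the filter on low values in both tables. The Th17 table lists 11077 genes, of which 10269 were tested, and the iTreg table lists 11056 genes, of which 10208 were tested.

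The 12 libraries came from 4 cultures each of Th0, Th17, and iTreg cells, made from naive CD4+CD62L+ T cells of the spleens of C57BL/6 mice aged 8 to 10 weeks and collected after 3 days. All cells received plate-bound anti-CD3 (1 µg/ml) and anti-CD28 (1 µg/ml), so Th0 cells were activated cells without polarizing cytokines. Th17 cells also received 30 ng/ml IL6, 5 ng/ml TGFβ1, and neutralizing antibodies to IL4 and IFNγ at 10 µg/ml each. iTreg cells also received, per the labels, IL2 and TGFβ1 at 10 ng/ml each. The TGFβ1 concentration in the study's methods is a different one. Every group is a bulk culture, in which fewer cells of a type and less RNA per cell cannot be told apart.

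Values are FPKM, in which the fragments of a gene are divided by its length and by the size of the library, so that levels of different genes can be set side by side. Libraries are named by their column headings, whose endings give the group. Each group has 1 heading beginning with each of M22, M29, M42, and M43, but the meaning of these is not stated, so groups were compared unpaired. The same Th0 libraries carry FPKM that differ between the tables by a factor of 1.01 per library, and the comparisons share these controls. A gene is called DE where limma on log2(FPKM + 1), adjusted after Benjamini and Hochberg over all tested genes, gave an FDR under 0.05. Relative depth, read from the steps of the low FPKM values, differed by at most 1.29 times within the Th17 table and 1.44 times within the iTreg table.

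The labelled cell types had their markers. All 8 T helper cell markers (Cd3d, Cd3e, Cd3g, Cd4, Cd2, Cd5, Cd28, and Lck) were listed, and their summed level was 1151 to 1939 FPKM in Th17 libraries, 1357 to 1977 FPKM in iTreg libraries, and 1268 to 2501 FPKM in Th0 libraries of the Th17 table. Of these markers, Cd4 was down-regulated in Th17 cells (207.6 to 68.1 FPKM, adjusted p = 0.038, limma) and Cd2 was up-regulated in iTreg cells (164 to 342 FPKM, adjusted p = 0.012, limma), and the others were not DE. All 5 Th17 lineage markers were up-regulated in Th17 cells, and the 3 of them with a row in the iTreg table were also up-regulated in iTreg cells. Il17a, Il17f, and Il23r were at no more than 0.114, 0.184, and 0.205 FPKM in any Th0 library of the Th17 table. They passed the filter on low values through their Th17 libraries alone, and Il17f in the iTreg table through its iTreg libraries alone. Their differences are therefore given as a description. Foxp3, the transcription factor that defines regulatory T cells, had a mean of 4.84 FPKM (SD 2.55, n = 4) in Th0 and of 75.2 FPKM (SD 13.5, n = 4) in iTreg libraries. Of the regulatory T cell markers, 4 of 6 were up-regulated in iTreg cells and 3 of 5 tested in Th17 cells. In Th17 libraries Foxp3 ranged from 0.499 to 42.5 FPKM, with a mean of 12.0 FPKM (SD 20.4, n = 4), and was not DE. Most of this level came from the highest Th17 library. In the Th17 comparison 6 of the 9 genes were DE with each library left out, and the part of that library was not tested otherwise.

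Markers of other cells were low. Of 5 B cell markers only Cd79a was listed, at no more than 3.84 FPKM in any library, and of 2 CD8 T cell markers only Cd8b1, at no more than 6.60 FPKM. No NK cell, dendritic cell, or erythroid marker had a row in either table. Of 6 macrophage and monocyte markers, Cd68 was at 4.06 ± 0.686 FPKM in Th0 and 8.91 ± 4.71 FPKM in Th17 cells (SD, n = 4, adjusted p = 0.055, limma) and Itgam was under 1 FPKM in every library of the Th17 table, while the other 4 were not listed. The part of these cells in the results below was not tested.

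Ligands of the TNF family are trimers that cluster their receptors, and the clustered receptors recruit TRAF adaptor proteins that switch on NF-κB and kinase cascades. Most costimulatory receptors of the family appear or rise on T cells after antigen stimulation and prolong the response, whereas Cd27 is already present on naive cells. A few members, among them Fas and Tnfrsf25, carry an intracellular death domain, which can bind the adaptors of the caspase cascade.

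The 9 genes were chosen with earlier results of these data known, so their counts beside those of all genes are a description. In Th17 cells, 6 of the 9 genes (66.7%) were DE compared to Th0 cells, beside 19.3% of all tested genes. Tnfrsf25 was up-regulated (10.6% of all tested genes were), and Tnfrsf4, Tnfrsf9, Tnfrsf18, Tnfsf8, and Tnfsf11 were down-regulated (8.69% of all tested genes were). Th17 and Th0 libraries had no overlap for these 6 genes, as for 23.8% of all tested genes. Tnfsf11 passed the filter on low values through its Th0 libraries alone. The other 8 genes were above 1 FPKM in every library, and 5 of these 8 were DE, 1 up-regulated and 4 down-regulated. The median log2 fold change of the 9 genes was -1.26, and -0.76 for the 8 genes without Tnfsf11, beside -0.00071 for all tested genes. In iTreg cells, 3 of the 9 genes (33.3%) were DE, beside 16.6% of all tested genes. Tnfrsf25 was again up-regulated (8.36% of all tested genes were), and Cd27 and Tnfsf8 were down-regulated (8.21% were). iTreg and Th0 libraries had no overlap for 2 of the 9, Tnfrsf25 and Tnfsf8, and for 22.8% of all tested genes. With libraries rescaled to the same FPKM sum, 646 genes of the whole iTreg table were up-regulated and 1171 down-regulated, in place of 853 and 838, and the same count of 1 member up-regulated and 2 down-regulated was found.

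**Figure D1:**
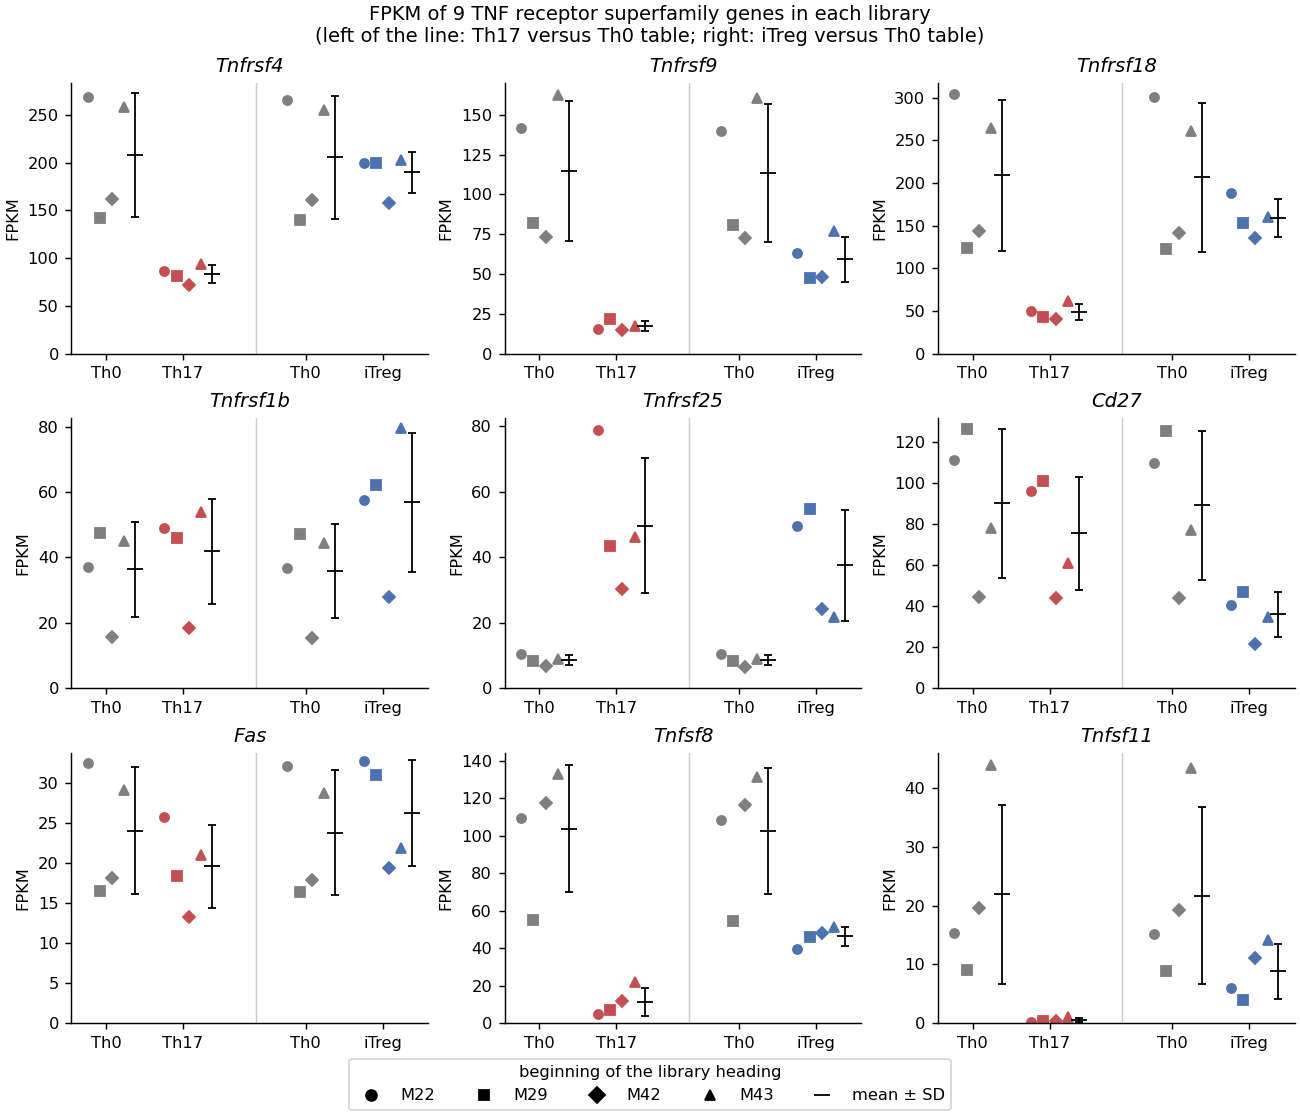
FPKM of each of the 9 genes in each library, with the Th17 versus Th0 table left of the grey line and the iTreg versus Th0 table right of it. Points are libraries, their shapes mark the beginning of the column heading, and black bars show the mean and SD of 4 libraries. The Th17 libraries of Tnfrsf9 (14.5 to 21.97 FPKM) sit below its Th0 libraries (73.4 to 163 FPKM), and those of Tnfrsf25 (30.1 to 78.9 FPKM) above (6.65 to 10.5 FPKM).

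Tnfrsf4 encodes OX40, a receptor that sustains activated CD4+ T cells. Its 4 Th0 libraries M22_1, M29_1, M42_1, and M43_1 were at 269, 141, 162, and 259 FPKM, and the Th17 libraries M22_5, M29_5, M42_5, and M43_5, given in the same order here and below, were at 86.5, 81.0, 71.7, and 94.1 FPKM. Every Th17 library was below every Th0 library, and the Th17 values lay closer together, with a coefficient of variation of 11.3% against 31.4% in Th0. The log2 fold change was -1.26 (SE 0.22, adjusted p = 0.0044, limma), and the exact permutation test of 4 against 4 libraries gave its smallest two-sided p, 0.029. In the iTreg libraries M22_4, M29_4, M42_4, and M43_4, also kept in this order below, Tnfrsf4 was at 199.8, 199.5, 158, and 203 FPKM. These lie inside the range of the Th0 libraries of the iTreg table (140.2 to 266 FPKM). The log2 fold change was -0.06 with a 95% interval of -0.56 to 0.43 (adjusted p = 0.88, limma), and 3 of 4 iTreg libraries were below the Th0 library with the same beginning.

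Tnfrsf18 encodes GITR, a receptor that is high on regulatory T cells and induced on other T cells by activation. In Th0 libraries it was at 304, 124, 143, and 265 FPKM, close to Tnfrsf4, and in Th17 libraries it was at 49.4, 43.1, 40.1, and 62.0 FPKM. The groups did not overlap, and the log2 fold change was -1.997 (SE 0.30, adjusted p = 0.0019, limma). In iTreg libraries Tnfrsf18 was at 188, 153, 135, and 160.3 FPKM, within the Th0 range of 123 to 300.4 FPKM, with a log2 fold change of -0.28 and a 95% interval of -0.93 to 0.37. Of its 1524 exonic bases, 414 (27.2%) are shared with the antisense gene Gm16008 in the GENCODE annotation. Since reads were counted without strand, reads from the 2 genes cannot be told apart there. Reads were counted in union mode, and whether reads from these bases entered the FPKM of Tnfrsf18 or were left out is not known.

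Tnfrsf4 and Tnfrsf18 are neighbours on chromosome 4 of GRCm38 (mm10), both on the plus strand, Tnfrsf4 from 156013843 to 156016612 and Tnfrsf18 from 156026164 to 156028895, with 9552 bases between them. Their levels followed each other over the 8 libraries of the Th17 table (Pearson's r = 0.997 of log2 values, a description over 2 groups that differ in level). Of 8180 genes with a mean above 5 FPKM, each was the other's closest. Within a library, the ratio of Tnfrsf18 to Tnfrsf4 FPKM was 1.13, 0.876, 0.884, and 1.02 in Th0 libraries and 0.571, 0.532, 0.559, and 0.659 in Th17 libraries. In iTreg libraries the ratio was 0.943, 0.765, 0.857, and 0.790. This ratio does not depend on the scaling of a library, was chosen after the values were seen, and was not tested. The Th17 ratios lay below all others, and the iTreg ratios overlapped the Th0 ratios, although each was below that of the Th0 library with the same beginning.

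**Figure D2:**
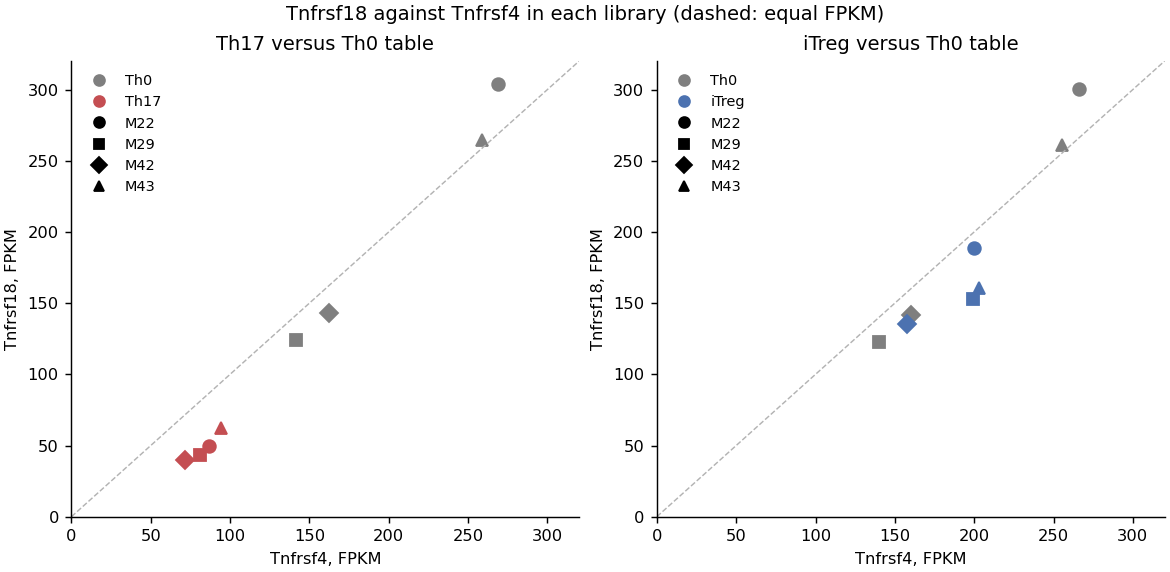
Tnfrsf18 against Tnfrsf4 in FPKM, 1 point per library, coloured by group and shaped by the beginning of the heading, with the Th17 versus Th0 table on the left and the iTreg versus Th0 table on the right. Th0 libraries lie near the dashed line of equal FPKM, Th17 libraries lie below it (0.532 to 0.659 of Tnfrsf4) and nearer to 0, and iTreg libraries lie among the Th0 libraries.

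Of 8 protein-coding genes within 100 kb of the pair, the pair included, 6 were tested in each table. In the Th17 comparison Tnfrsf4 and Tnfrsf18 were DE and the other 4 tested genes were not. Sdf4, which ends just upstream of Tnfrsf4, was at 65.5 FPKM in Th0 and 53.5 FPKM in Th17 cells (log2 fold change -0.29, SE 0.21, adjusted p = 0.40, limma). None of the 6 was DE in the iTreg comparison by limma with Benjamini-Hochberg adjustment, where 9430015G10Rik had the smallest adjusted p (0.21), and 0 of the 6 had an unadjusted p under 0.05.

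Tnfrsf9 encodes 4-1BB (CD137), which is induced by T cell receptor signals. It was at 142, 81.8, 73.4, and 163 FPKM in Th0 libraries and at 15.3, 21.97, 14.5, and 17.4 FPKM in Th17 libraries. The groups did not overlap. Its mean was 6.65 times higher in Th0 than in Th17 cells, and its log2 fold change of -2.60 (SE 0.27, adjusted p = 2.6e-04, limma) was the lowest of the 7 receptors. In iTreg libraries it was at 63.2, 47.7, 48.4, and 77.1 FPKM. Each iTreg library was below the Th0 library with the same beginning, but the highest iTreg library lay above the lowest Th0 library (72.6 FPKM), and Tnfrsf9 did not pass the threshold there (log2 fold change -0.88, SE 0.28, adjusted p = 0.067, limma). It was called DE when M42_1 was left out (log2 fold change -1.06, adjusted p = 0.037, limma).

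The promoter windows of these 3 receptors, and that of Tnfrsf25, are shown because these are the receptors that changed in Th17 cells. They are RefSeq windows of GRCm38.p6 from 250 bases before to 50 bases after a transcript start, written 5′ to 3′ on the gene's strand, which is plus for all 4. Capitals mark κB matches (GGG and CC with any 5 bases between them, the frame of the sites bound by NF-κB) and AP-1 matches (TGANTCA), searched on both strands.
Tnfrsf4 (chr4:156013445-156013744): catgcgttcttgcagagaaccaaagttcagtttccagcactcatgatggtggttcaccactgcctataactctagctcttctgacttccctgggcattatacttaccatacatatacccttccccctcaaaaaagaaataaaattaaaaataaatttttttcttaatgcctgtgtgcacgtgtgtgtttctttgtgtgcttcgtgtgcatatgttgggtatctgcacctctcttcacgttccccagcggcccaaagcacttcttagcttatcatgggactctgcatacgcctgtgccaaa
Tnfrsf18 (chr4:156026072-156026371): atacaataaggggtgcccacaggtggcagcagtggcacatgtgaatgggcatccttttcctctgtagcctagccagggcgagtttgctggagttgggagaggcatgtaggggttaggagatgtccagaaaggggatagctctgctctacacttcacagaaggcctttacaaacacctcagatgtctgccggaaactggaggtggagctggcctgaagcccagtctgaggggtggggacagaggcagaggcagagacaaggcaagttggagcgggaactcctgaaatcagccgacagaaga
Tnfrsf9 (chr4:150927749-150928048): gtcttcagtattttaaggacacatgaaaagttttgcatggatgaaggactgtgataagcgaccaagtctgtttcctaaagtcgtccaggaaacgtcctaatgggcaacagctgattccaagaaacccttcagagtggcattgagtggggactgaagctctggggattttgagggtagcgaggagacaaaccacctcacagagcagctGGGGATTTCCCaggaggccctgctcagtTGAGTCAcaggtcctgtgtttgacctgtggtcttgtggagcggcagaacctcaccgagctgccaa
Tnfrsf25 (chr4:152115684-152115983): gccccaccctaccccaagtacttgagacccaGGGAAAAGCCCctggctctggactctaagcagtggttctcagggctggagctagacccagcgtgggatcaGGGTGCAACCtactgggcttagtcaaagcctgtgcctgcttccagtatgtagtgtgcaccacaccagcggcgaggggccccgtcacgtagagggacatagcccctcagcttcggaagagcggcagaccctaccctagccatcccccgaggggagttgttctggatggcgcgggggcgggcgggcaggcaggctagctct

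The Tnfrsf9 window held GGGGATTTCC, which overlaps a second κB match shifted by a single base, from 43 bases before the start, and TGAGTCA from 15 bases before it. The other RefSeq window of Tnfrsf9 (chr4:150919905-150920204) held neither. The Tnfrsf25 window shown held 3 κB matches, of which GGGAAAAGCC and GGAAAAGCCC overlap, and the windows of Tnfrsf4 and Tnfrsf18 held no κB or AP-1 match. The other RefSeq window of Tnfrsf25 (chr4:152116093-152116392) held 3 κB matches and no AP-1 match. RefSeq gave 11 windows for the 9 genes. A κB match stood in windows of 6 genes (Tnfrsf9, Tnfrsf1b, Tnfrsf25, Cd27, Fas, and Tnfsf11) and an AP-1 match in windows of 2 genes (Tnfrsf9 and Fas). Counted by window, 7 of the 11 held a κB match and 2 an AP-1 match. Of all 32851 promoter windows, 50.8% held a κB match and 7.81% an AP-1 match, so the κB letters are common in windows of this length. The letters of a STAT site (TTCNNNGAA, 8.30% of all windows) stood in 5 of the 11 windows, from 5 genes. Those of an NFAT core (GGAAAA, 23.4% of all windows) also stood in 5 of the 11 windows, from 5 genes. Such a match describes the sequence and does not show that a factor binds.

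Tnfrsf1b encodes TNFR2, the TNF receptor without a death domain. It was at 37.2, 47.4, 15.6, and 45.0 FPKM in Th0 libraries and 48.9, 46.1, 18.3, and 53.9 FPKM in Th17 libraries, and in both groups the library whose heading begins with M42 was lowest. The groups overlapped, with a log2 fold change of 0.20 and a 95% interval of -0.75 to 1.16 (adjusted p = 0.78, limma). In iTreg libraries Tnfrsf1b was at 57.5, 62.2, 28.04, and 79.5 FPKM, again with M42_4 lowest. Each iTreg library was above the Th0 library with the same beginning, by 1.32 to 1.82 times, but the unpaired test did not pass the threshold (log2 fold change 0.67, SE 0.40, adjusted p = 0.31, limma).

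Cd27 encodes a receptor of naive and memory T cells that binds CD70. It was at 111, 126, 44.4, and 78.2 FPKM in Th0 libraries and 96.0, 101.2, 44.1, and 61.2 FPKM in Th17 libraries. These groups overlapped, with each Th17 library below the Th0 library of the same beginning (log2 fold change -0.22, 95% interval -1.06 to 0.61, adjusted p = 0.72, limma). In iTreg libraries Cd27 was at 40.6, 46.9, 21.6, and 34.7 FPKM, and Cd27 was down-regulated (log2 fold change -1.23, SE 0.35, adjusted p = 0.042, limma). The Th0 library M42_1 (43.8 FPKM in this table) was below the iTreg library M29_4, so the groups overlapped and the exact permutation test gave a two-sided p of 0.057. Within libraries of the same beginning, Th0 was 2.03 to 2.71 times the iTreg level in all 4. This call was lost when any of 6 libraries was left out (M22_1, M22_4, M29_1, M42_4, M43_1, or M43_4), with adjusted p values up to 0.11 by limma, and it was kept without both M42 libraries (log2 fold change -1.32, adjusted p = 0.010, limma).

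Cd27 and Tnfrsf1b were lowest in the M42 library in every group. In Th17 and Th0 libraries alike, 4 of the 9 genes (Tnfrsf9, Tnfrsf1b, Tnfrsf25, and Cd27) were lowest in M42 in the Th17 table, beside 19.0% of all tested genes, and 2 of the 9 were so in iTreg and Th0 libraries of the iTreg table, beside 16.5%. Without both M42 libraries, left out after seeing the data, Tnfrsf1b had a log2 fold change of 0.62 in iTreg (adjusted p = 0.062, limma) and 0.20 in Th17 cells (adjusted p = 0.37, limma). That of Cd27 in Th17 cells was then -0.29 (adjusted p = 0.48, limma). The meaning of M42 is not stated, and why its libraries were lowest was not tested.

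Tnfrsf25 encodes DR3, a receptor with a death domain that costimulates T cells when bound by TL1A, the product of Tnfsf15. It had the lowest level of the 9 genes in Th0 cells, at 10.5, 8.36, 6.65, and 8.95 FPKM. In Th17 libraries it was at 78.9, 43.3, 30.1, and 46.2 FPKM, so that the lowest Th17 library was 2.88 times the highest Th0 library. The log2 fold change was 2.33 (SE 0.26, adjusted p = 4.3e-04, limma). In iTreg libraries it was at 49.5, 54.6, 24.1, and 21.8 FPKM, all above the Th0 libraries of that table (6.57 to 10.3 FPKM), with a log2 fold change of 1.92 (SE 0.30, adjusted p = 0.0034, limma). The comparisons share the Th0 libraries. The call was kept under every alternative tried, with adjusted p values of 2.9e-04 to 0.0021 in the Th17 comparison and 0.0027 to 0.013 in the iTreg comparison (limma). Tnfsf15 had no row in either table.

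Fas encodes the death receptor CD95. It was at 32.5, 16.5, 18.1, and 29.1 FPKM in Th0, 25.7, 18.4, 13.2, and 21.0 FPKM in Th17, and 32.8, 31.0, 19.4, and 21.8 FPKM in iTreg libraries. The groups overlapped in both comparisons. The log2 fold change was -0.26 in Th17 (95% interval -0.86 to 0.33, adjusted p = 0.53, limma) and 0.16 in iTreg cells (95% interval -0.42 to 0.74, adjusted p = 0.74, limma).

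**Figure D3:**
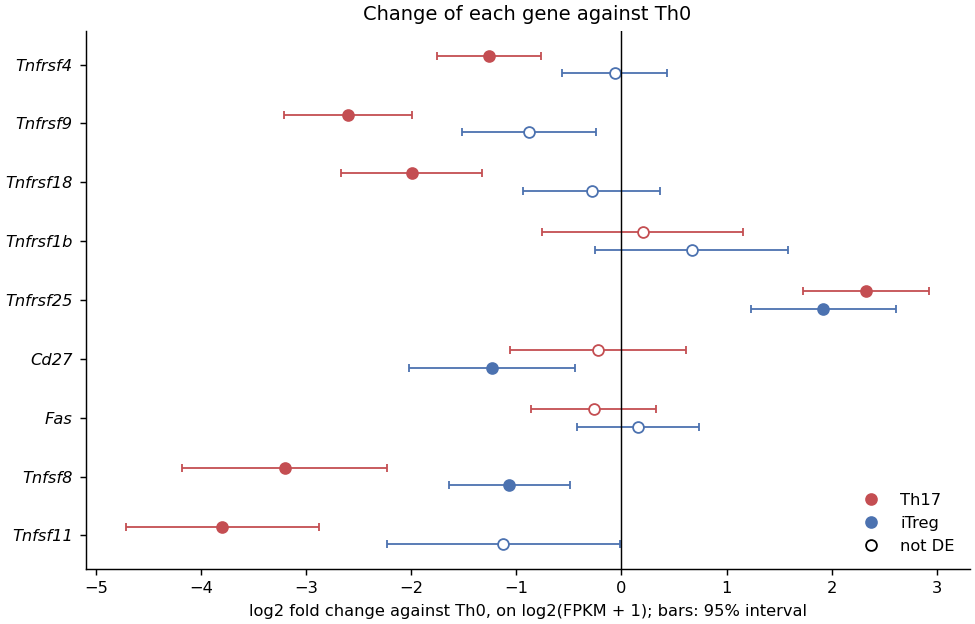
Log2 fold change of each of the 9 genes against Th0 on the log2(FPKM + 1) scale, in red for Th17 and in blue for iTreg cells, with 95% intervals over 4 against 4 libraries. Filled points were DE by limma. Tnfrsf25 lies right of 0 in both comparisons, Tnfsf11 and Tnfsf8 lie farthest to the left in Th17 cells (-3.80 and -3.21), and the intervals of Tnfrsf1b and Fas include 0 in both.

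Tnfsf11 encodes RANKL, the ligand that drives osteoclast formation and that activated T cells can make. It was at 15.4, 9.003, 19.5, and 43.9 FPKM in Th0 libraries and at 0.164, 0.418, 0.255, and 0.944 FPKM in Th17 libraries. The mean was 49.3 times higher in Th0 than in Th17 cells, and the lowest Th0 library was 9.53 times the highest Th17 library. The log2 fold change of -3.80 (SE 0.40, adjusted p = 3.0e-04, limma) is limited by the pseudocount and was -5.30 with a pseudocount of 0.1. All Th17 libraries were under 1 FPKM, so Tnfsf11 passed the filter through its Th0 libraries. It was also DE with no filter on low values (adjusted p = 3.1e-04, limma). The authors had already removed genes with low counts, so this run cannot show that Tnfsf11 entered independently of its Th0 libraries. Its difference in Th17 cells is therefore given as a description. In iTreg libraries it was at 6.03, 3.98, 11.1, and 14.1 FPKM, each below the Th0 library with the same beginning, but the groups overlapped and the gene did not pass the threshold (log2 fold change -1.12, SE 0.49, adjusted p = 0.16, limma).

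Tnfsf8 encodes CD30 ligand. It was at 110, 55.0, 118, and 133 FPKM in Th0 libraries and at 4.90, 6.94, 11.8, and 21.6 FPKM in Th17 libraries. The groups did not overlap, and the mean was 9.17 times higher in Th0 cells (log2 fold change -3.21, SE 0.43, adjusted p = 0.0011, limma). In iTreg libraries it was at 39.6, 45.9, 48.0, and 51.4 FPKM, a narrow range just below the lowest Th0 library of that table (54.5 FPKM). Tnfsf8 was down-regulated there (log2 fold change -1.07, SE 0.25, adjusted p = 0.022, limma). The call was lost without M22_1, M22_4, M42_1, or M43_1, and without both M42 libraries, with adjusted p values up to 0.097 by limma.

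In Th0 cells the highest of the 9 genes were Tnfrsf18 and Tnfrsf4, at means of 209 and 208 FPKM in the Th17 table, above 97.7% of the listed genes each. Every neighbour in the order of Th0 means (Tnfrsf18, Tnfrsf4, Tnfrsf9, Tnfsf8, Cd27, Tnfrsf1b, Fas, Tnfsf11, and Tnfrsf25) overlapped the next in the range of its libraries. In Th17 cells the order was Tnfrsf4, Cd27, Tnfrsf25, Tnfrsf18, Tnfrsf1b, Fas, Tnfrsf9, Tnfsf8, and Tnfsf11, in which only the step from Tnfsf8 to Tnfsf11 lay outside the ranges of the libraries. Tnfrsf25 was the lowest of the 9 in Th0 cells and the third of the 9 by mean in Th17 cells (49.6 ± 20.7 FPKM, SD, n = 4). In iTreg cells Tnfrsf4 and Tnfrsf18 again stood first (190.0 ± 21.5 and 159 ± 22.2 FPKM, SD, n = 4), above and apart from Tnfrsf9 (59.1 ± 13.955 FPKM), and Tnfsf11 was last and apart from the rest (8.82 ± 4.65 FPKM).

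The other genes of the family were counted in 5 lists, of 83 genes in all. Of these, 65 were tested in the Th17 comparison and 21 were DE, and 67 were tested in the iTreg comparison and 15 were DE. In Th17 cells 9 of these rose and 12 fell, and in iTreg cells 9 rose and 6 fell, or 7 and 8 with libraries rescaled to the same FPKM sum. Members and lists were read from the same fit, and the share of all tested genes called DE was 19.3% and 16.6%. Both were chosen with earlier results of these data known, so the counts of the lists are also a description.

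Of 21 other TNF receptors, 10 were tested in the Th17 table, of which 6 were up-regulated and none down-regulated by limma, with a median log2 fold change of 1.32. Of these 10, Tnfrsf8 passed the filter through its Th17 libraries alone, and without it 5 of 9 were up-regulated, with a median of 1.07. At an unadjusted p under 0.05 by limma, 7 of the 10, Tnfrsf8 included, were higher and 0 lower in Th17 cells. The share of all tested genes at this unadjusted threshold was not calculated, so this count has no baseline. Tnfrsf14 (HVEM) was at 36.8 ± 11.6 FPKM in Th0 and 108 ± 26.2 FPKM in Th17 cells (SD, n = 4, adjusted p = 0.0041, limma), and Tnfrsf26, of a mouse gene cluster that holds TRAIL decoy receptors, was at 13.5 ± 5.77 and 53.1 ± 8.59 FPKM (adjusted p = 0.0012, limma). Tnfrsf23, also of that cluster, and Tnfrsf12a (Fn14) rose from 2.02 to 13.9 FPKM and from 2.29 to 9.91 FPKM. Tnfrsf8 (CD30), the receptor of Tnfsf8, was at no more than 0.889 FPKM in any Th0 library and at 4.88 ± 1.65 FPKM in Th17 libraries (SD, n = 4), which is given as a description, since its Th17 libraries let it into the test.

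In the iTreg comparison 11 of these receptors were tested, of which 4 were up-regulated and none down-regulated by limma, with a median log2 fold change of 0.44. Of these 11, Cd40 passed the filter through its iTreg libraries alone, and without it 3 of 10 were up-regulated, with a median of 0.37. At an unadjusted p under 0.05 by limma, 5 of the 11, Cd40 included, were higher and 0 lower in iTreg cells, again without a calculated baseline. Tnfrsf13b (TACI), known best from B cells, was at 9.59 ± 1.01 FPKM in Th0 and 66.4 ± 11.5 FPKM in iTreg cells (SD, n = 4, log2 fold change 2.66, SE 0.15, adjusted p = 1.8e-05, limma). In Th17 cells Tnfrsf13b was at 23.8 ± 12.3 FPKM and did not pass the threshold (adjusted p = 0.052, limma). Cd40 was at no more than 0.920 FPKM in any Th0 library and at 5.10 ± 1.22 FPKM in iTreg libraries (SD, n = 4), also given as a description. Tnfrsf12a rose from 2.27 to 11.7 FPKM. Of the B cell markers, Cd79a was at 1.81 ± 1.48 FPKM in Th0 and 1.20 ± 0.691 FPKM in iTreg cells (SD, n = 4, adjusted p = 0.69, limma), and the other 4 were not listed.

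Of 16 other TNF ligands, 9 were tested in the Th17 table, of which 5 were down-regulated and none up-regulated by limma, with a median log2 fold change of -0.96. At an unadjusted p under 0.05 by limma, 5 fell and 0 rose, a count without a calculated share of all tested genes beside it. Fasl, the ligand of Fas, was at 12.2 ± 2.66 FPKM in Th0 and 0.5685 ± 0.5105 FPKM in Th17 cells (SD, n = 4, log2 fold change -3.10, SE 0.23, adjusted p = 4.9e-05, limma). Its Th17 libraries were near the floor, at 0.215 to 1.32 FPKM. Its Th0 libraries (9.28 to 15.6 FPKM) were enough to pass the filter on low values, so the difference is also given as a description. Cd40lg, through which helper T cells stimulate B cells and dendritic cells, was at 63.7 ± 21.4 and 8.37 ± 3.90 FPKM (adjusted p = 3.2e-04, limma). Tnfsf4, the ligand of Tnfrsf4, was at 58.7 ± 18.4 and 7.75 ± 2.28 FPKM (adjusted p = 1.7e-04, limma), and Tnfsf14 (LIGHT), a ligand of Tnfrsf14, was at 16.003 ± 8.21 and 2.25 ± 0.928 FPKM (adjusted p = 0.0036, limma). Tnfsf9, the ligand of Tnfrsf9, was at 7.64 ± 2.87 and 3.39 ± 0.696 FPKM (adjusted p = 0.032, limma). For OX40 and 4-1BB, receptor and ligand were both down-regulated in Th17 cells. For CD30 and HVEM the receptors Tnfrsf8 and Tnfrsf14 were higher and the ligands Tnfsf8 and Tnfsf14 lower. Fas was not DE while Fasl was lower.

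In the iTreg comparison 10 of these ligands were tested, of which 1 was up-regulated and 2 were down-regulated by limma, with a median log2 fold change of -0.66. At an unadjusted p under 0.05 by limma, 1 was higher and 5 were lower in iTreg cells, also without a calculated share of all tested genes. Lta (lymphotoxin α), which binds Tnfrsf1b among others, was at 50.5 ± 24.6 FPKM in Th0 and 290 ± 65.7 FPKM in iTreg cells (SD, n = 4, log2 fold change 2.58, SE 0.32, adjusted p = 9.4e-04, limma). In Th17 cells Lta was at 40.1 ± 16.04 FPKM (adjusted p = 0.61, limma). Tnf, which also binds Tnfrsf1b, was not DE in either comparison. It was at 31.9 FPKM in Th0 and 35.6 FPKM in iTreg cells (adjusted p = 0.72, limma), and at 32.3 and 19.9 FPKM in Th0 and Th17 cells (adjusted p = 0.16, limma). Tnfsf9 was at 7.56 FPKM in Th0 and 4.14 FPKM in iTreg cells (adjusted p = 0.094, limma). Tnfsf4 (58.0 to 22.7 FPKM, adjusted p = 0.028, limma) and Fasl (12.0 to 5.39 FPKM, adjusted p = 0.022, limma) were down-regulated. Cd70, the ligand of Cd27, was at 3.43 ± 2.50 FPKM in Th0 and 0.689 ± 0.684 FPKM in iTreg cells (adjusted p = 0.076, limma) and had no row in the Th17 table. The ligand of Tnfrsf18, Tnfsf18, and the receptor of Tnfsf11, Tnfrsf11a (RANK), had no row in either table. These partners are given because they bind the 9 genes' products, with some values already known.

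**Figure D4:**
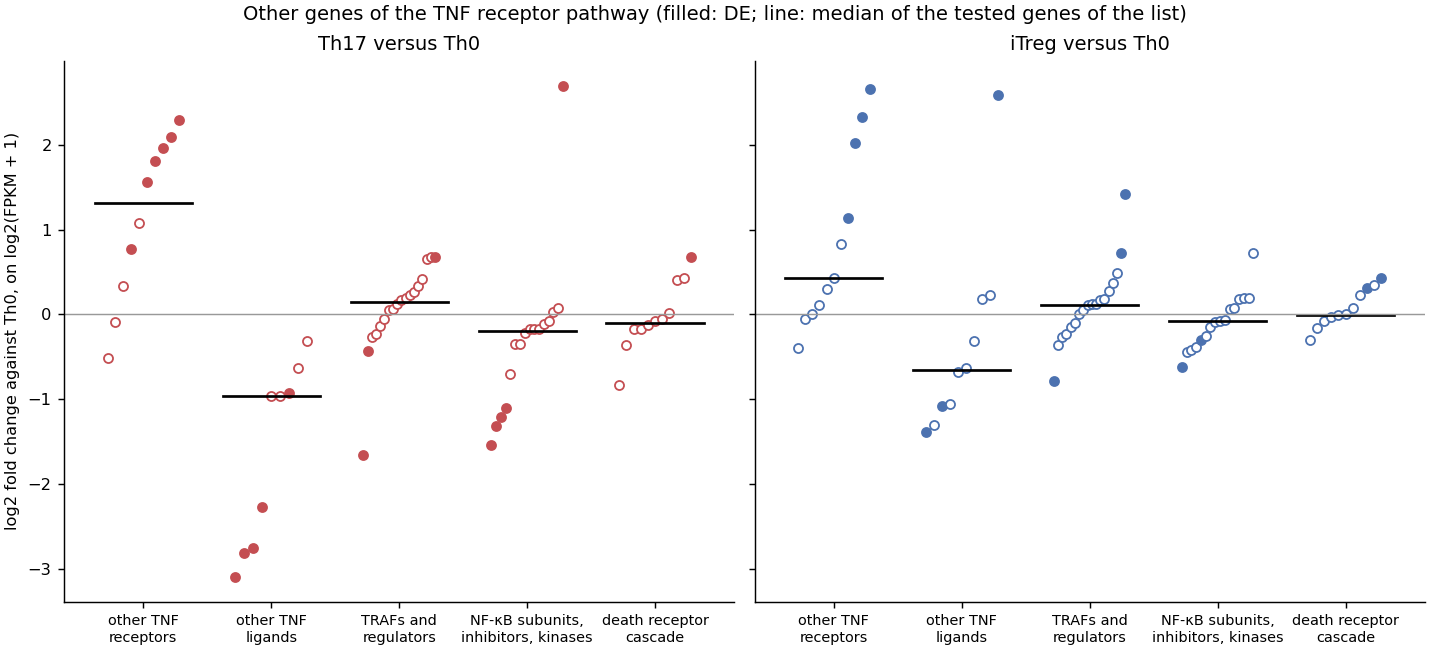
Log2 fold change of the tested genes of 5 lists against Th0 on the log2(FPKM + 1) scale, without 1 gene of the death receptor cascade, with Th17 cells on the left and iTreg cells on the right. Filled points were DE by limma and black lines show the median of the list, which in Th17 cells was 1.32 for the other receptors and -0.96 for the other ligands. The other 3 lists had medians between -0.20 and 0.15 in both comparisons.

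The TRAF adaptors and receptor-proximal regulators were all tested. Of 18 genes, 1 was up-regulated and 2 down-regulated in Th17 cells, with a median log2 fold change of 0.15, and 2 were up-regulated and 1 down-regulated in iTreg cells, with a median of 0.12. Traf1, an adaptor of OX40, 4-1BB, and CD30 and itself an NF-κB target, was at 85.0 ± 14.9 FPKM in Th0 and 26.1 ± 4.53 FPKM in Th17 cells (SD, n = 4, log2 fold change -1.66, adjusted p = 2.1e-04, limma). It was at 48.0 ± 3.88 FPKM in iTreg cells, also down-regulated (log2 fold change -0.78, adjusted p = 0.0058, limma). Traf2 fell from 20.2 to 14.8 FPKM and Traf3, which restrains the noncanonical NF-κB pathway, rose from 13.6 to 22.4 FPKM in Th17 cells. Traf6 rose from 28.4 to 78.0 FPKM (adjusted p = 4.0e-05, limma) and Traf4 from 19.0 to 31.8 FPKM in iTreg cells.

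Of 16 NF-κB subunits, inhibitors, and kinases, 1 was up-regulated and 4 down-regulated in Th17 cells (median log2 fold change -0.20), and none was up-regulated and 2 were down-regulated in iTreg cells by limma (median -0.08). In Th17 cells Rel, the subunit most tied to T cell activation, was at 11.4 ± 1.69 FPKM against 35.3 ± 6.09 FPKM in Th0 cells (SD, n = 4, adjusted p = 2.7e-04, limma). Nfkb2, the precursor of the noncanonical subunit, fell from 135 to 51.8 FPKM, and Nfkbie, an inhibitor, and Nfkbiz, an atypical IκB protein, fell from 24.1 to 10.7 FPKM and from 16.7 to 6.58 FPKM. Bcl3, a nuclear IκB protein, rose from 6.55 ± 1.79 to 48.2 ± 12.6 FPKM (SD, n = 4, adjusted p = 1.3e-04, limma). In iTreg cells Rel was at 22.2 ± 1.84 FPKM (adjusted p = 0.018, limma) and Rela fell from 73.6 to 59.5 FPKM (adjusted p = 0.042, limma).

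Of 12 genes of the death receptor cascade below Fas and Tnfrsf25, 1 was up-regulated and 1 down-regulated in Th17 cells, and 2 were up-regulated and 1 down-regulated in iTreg cells, with median log2 fold changes of -0.10 and -0.00084. Casp6 rose from 10.1 to 17.0 FPKM in Th17 cells. Casp8, the caspase that Fas recruits, rose from 35.3 to 47.5 FPKM (adjusted p = 0.044, limma) and Diablo from 26.9 to 33.6 FPKM in iTreg cells.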

How the data were processed

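RNA from 12 cultures was sequenced, 4 each of Th0, Th17, and iTreg cells. The authors aligned the reads with TopHat2 2.0.14 to mm10, counted them on exons with HTSeq without strand, removed genes without more than 1 CPM in at least 4 samples, and ran edgeR on the counts with cultures paired by experiment. The authors deposited 2 tables of FPKM values for 8 libraries each, beside log2 fold changes, p-values, and FDR of their own tests, which were not used here. How FPKM was calculated, and on which annotation, the sources used here do not say. Counts are not in the tables, so the counting error behind a value is unknown and no intervals for it were calculated.

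The 9 genes and the lists around them were chosen with earlier results of these data known. Columns were assigned to groups by their endings. Genes above 1 FPKM in 4 or more of 8 libraries were compared on log2(FPKM + 1), 4 against 4, with limma 3.58.1 in R 4.3.3 (Benjamini-Hochberg over all tested genes, FDR 0.05), which was tested on simulated data first. On this scale the fold change of a low gene comes out too small. Exact permutation tests (70 arrangements) used scipy 1.17.1 in Python 3.11.15, with numpy 2.4.6 and pandas 2.3.3. They took all 8 libraries of a comparison as exchangeable, although the authors paired cultures by experiment, so their p-values are limited by this. The 9 genes were named whatever their values, and of each list up to 5 DE genes with the largest fold changes and no overlap between groups, together with known binding partners of the 9 gene products. Some list genes enter the counts, but their values are not reported here. The 2 genes closest to each DE member had the highest Pearson correlation among genes with a mean above 5 FPKM. Positions come from the GENCODE annotation of GRCm38 and promoter windows from RefSeq. No test set Th17 against iTreg cells, because the 2 tables were scaled separately. The p-values measure the spread between cultures. Alternatives were the pseudocount, the filter, limma-trend, 2 rescalings, an FDR of 0.01, each library left out, and, chosen after seeing the data, both M42 libraries left out.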

Additional observations from a re-analysis of the deposited data

Results flagged for a closer look

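Of 27 groups of 4 libraries (9 genes in Th0, Th17, and iTreg cells), 1 held a library far from the other 3. Tnfrsf4 was at 157.8 FPKM in the iTreg library M42_4, while the other iTreg libraries lay between 199.5 and 203 FPKM, so that the gap to the nearest library was 0.924 of the whole range, above the 95% critical value of Dixon's test for 4 values. Chance alone gives this in about 1 of 20 groups. The Th0 library with the same beginning was at 160.3 FPKM, so that this iTreg value lies close to it.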

How the results depend on the processing

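In the Th17 comparison 6 of the 9 genes were DE under all 16 alternatives, 1 up-regulated and 5 down-regulated. In the iTreg comparison 3 were DE, 1 at an FDR of 0.01, and between 1 and 3 with each library left out. It was 1 without the libraries M22_1, M22_4, or M43_1 and 2 without both M42 libraries. Of 270 recomputed fold changes of single genes, 253 kept their direction and their side of the threshold, 11 lost a call (6 of Cd27 and 5 of Tnfsf8, in iTreg cells), 1 gained a call (Tnfrsf9 in iTreg cells), and 5 changed sign. The sign changes were all in genes that were not DE. With each library left out, the log2 fold change of Cd27 in Th17 cells ranged from -0.52 to 0.0080 (without M42_5), that of Tnfrsf1b in Th17 cells from -0.15 (without M42_1) to 0.55, and that of Tnfrsf4 in iTreg cells from -0.23 to 0.078 (above 0 without M22_1, M42_4, or M43_1). The count of DE genes of the 5 lists ranged from 19 to 26 in the Th17 comparison, and in the iTreg comparison from 8 to 17 with each library left out, at 9 without M22_1, 9 without M22_4, and 8 without M43_1. It was 8 at an FDR of 0.01 and 9 without both M42 libraries. Over all genes, an FDR of 0.01 gave 995 and 778 DE genes, against 1983 and 1691, and leaving out both M42 libraries gave 1053 in the iTreg comparison. The cause of these changes was not tested beyond the fewer libraries or stricter threshold itself. No paired analysis was possible by experiment, because the column headings carry no experiment number. A block on the heading beginnings could have been fitted, but no source used here gives their meaning, and it was not fitted. Differences shared by libraries of a beginning therefore count as spread in these tests, and a gene that was not DE is not shown to be unchanged. In iTreg cells Tnfrsf1b, Tnfrsf9, and Tnfsf11 were not DE, although each lay on 1 side of Th0 in all 4 beginnings. Tnfrsf4, Tnfrsf18, and Fas, also not DE there, did not. Cd27 in Th17 cells also lay on 1 side in all 4, at 0.783 to 0.993 of Th0 (adjusted p = 0.72, limma). The share of all tested genes on 1 side in all 4 beginnings was not calculated, so this pattern has no baseline. Depth in reads is unknown, which limits statements on genes near 0 FPKM such as Tnfsf11 and Fasl in Th17 cells.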

Other observations

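For each DE gene of the 9, the 2 genes closest to it over the 8 libraries of a table are given as a description, since the libraries fall into 2 groups and any gene with a like difference between the groups scores high. Tnfrsf9 in the Th17 table was closest to Glipr1 (r = 0.981, 74.2 FPKM in Th0 and 13.6 FPKM in Th17 cells) and Igfbp7 (r = 0.979, 33.8 and 0.561 FPKM). Tnfrsf25 was closest to Crispld2 (r = 0.992, 0.0702 and 10.6 FPKM) and to Tgfbr1, a chain of the TGFβ receptor (r = 0.989, 10.4 and 64.1 FPKM). Tnfsf11 was closest to Dnmt3a, a DNA methyltransferase (r = 0.992, 24.02 and 10.7 FPKM), and to Cd226, an activating receptor (r = 0.989, 14.4 and 0.413 FPKM). After each other, Tnfrsf4 was closest to Gpr183 (r = 0.987, 15.5 and 5.04 FPKM) and Tnfrsf18 to Pla2g4f (r = 0.984, 11.1 and 0.405 FPKM). Tnfsf8 was closest to Ppm1g (r = 0.992, 110 and 81.5 FPKM) and Lactb (r = 0.992, 15.9 and 9.94 FPKM), which fell by less.

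In the iTreg table, Tnfrsf25 was closest to Wnt10b (r = 0.994, 1.28 FPKM in Th0 and 15.04 FPKM in iTreg cells) and Phldb1 (r = 0.988, 3.24 and 9.85 FPKM). Cd27 was closest to Helz2 (r = 0.990, 12.9 and 9.12 FPKM) and Slc37a1 (r = 0.987, 9.48 and 6.07 FPKM), and Tnfsf8 to Dnmt3a (r = 0.985, 23.8 and 14.3 FPKM) and Hilpda (r = 0.984, 17.3 and 9.93 FPKM).

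By position, 6 of the 9 genes (Tnfrsf4, Tnfrsf9, Tnfrsf18, Tnfrsf1b, Tnfrsf25, and Tnfsf8) lie on chromosome 4. Tnfrsf1b is on the minus strand from 145213463 to 145246870, Tnfrsf9 on the plus strand from 150914562 to 150946102, and Tnfrsf25 on the plus strand from 152115934 to 152120119 (GENCODE annotation of GRCm38). Of these 6 genes, Tnfrsf25 was up-regulated in Th17 cells, Tnfrsf9, Tnfrsf4, Tnfrsf18, and Tnfsf8 were down-regulated, and Tnfrsf1b did not pass the threshold.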
